A study of Mus musculus with 12 samples.

Results

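The expression of 42 mitosis genes was described in calvarial osteoblast cultures of wild-type (WT) and Bcl3-/- mice. The genes were listed by name for their known place in the spindle, the kinetochore, cytokinesis or the control of these, with earlier results of these data known. Each symbol matched 1 Ensembl gene of the count data, so that 42 of 49585 genes are described, and all 42 were among the 16318 genes with enough reads to be tested. The data comprised 12 RNA sequencing libraries in 4 groups of 3, namely WT and Bcl3-/- cells, each after 1 and after 3 days of osteogenic induction. All cells were osteoblast cultures on the C57BL/6J background from pups 3 to 5 days old, with up to 3 calvariae (skull caps) pooled in a culture. After confluence every group received 2 mM β-glycerophosphate together with ascorbic acid at 50 μg/ml, and the libraries used here include no uninduced culture. The Bcl3-/- mice lack Bcl3, an atypical IκB protein that acts on NF-κB in the nucleus, in every cell type and not in osteoblasts alone. The labels hold 6 codes, 3 of each genotype, and each code recurs on both days. Libraries that share a code are taken below to come from the same culture, which the labels do not state.

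As background, mitosis divides a duplicated genome between daughter cells. Cyclin B and the kinase Cdk1 start it, kinesin motors and microtubule-binding proteins build the spindle, and kinetochores on the centromeres attach each chromosome to it. The spindle checkpoint holds back the anaphase-promoting complex until all chromosomes are attached; its activator Cdc20 then lets securin be destroyed, separase cut cohesin, and the central spindle and a contractile ring divide the cell. Most of these genes are transcribed in G2 and M phase, so that in RNA from many cells their level depends in part on the share of cells that divide. Osteoblast precursors proliferate before they reach confluence and withdraw from the cycle as they make and mineralize matrix.

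Reads assigned to genes summed to between 20009732 and 41953891 per library, and the 42 genes together took 33733 to 193503 of them. Levels are given as CPM, the reads of a gene relative to the size of its library after scaling by edgeR's TMM factors. Differences are log2 fold changes ± SE from edgeR's quasi-likelihood fit of the 4 groups. A gene was called at a Benjamini-Hochberg adjusted p under 0.05 over all 16318 genes. The p-values measure the spread between libraries of the same group and take no account of the codes shared between days. As a check of the labels, reads on the Bcl3 gene, which need not lie in the deleted part, stood at 18.0, 21.8 and 17.8 CPM in day 1 WT, 17.5, 19.7 and 19.2 in day 1 Bcl3-/-, 14.8, 15.9 and 12.8 in day 3 WT, and 10.2, 9.72 and 8.31 in day 3 Bcl3-/- libraries. They overlapped between genotypes on day 1 (log2 -0.035 ± 0.12, adjusted p = 0.887) and were lower in all 3 libraries labelled Bcl3-/- on day 3 (log2 -0.62 ± 0.12, adjusted p = 0.00863). Reads on this gene thus do not check the genotype labels of day 1. Markers of cell types and 2 library measures moved with the groups. Osteoblast markers, 11 genes, summed to 38273 to 55352 CPM in day 1 WT and 65369 to 68589 in day 1 Bcl3-/- libraries. On day 3 their sums were 78289 to 84966 in WT and 80639 to 86732 in Bcl3-/- libraries. Of these genes, 5 were higher and 1 lower in Bcl3-/- libraries on day 1, and 3 higher and 1 lower on day 3. With time 2 fell and 4 rose in WT, and 3 fell and 4 rose in Bcl3-/- libraries. Macrophage markers, 14 genes, summed to 343 to 545, 395 to 432, 798 to 1207 and 497 to 988 CPM in the same order of groups. Over time 11 of these rose among WT libraries, and 9 rose and 1 fell among Bcl3-/- libraries. On day 3, 2 were lower in Bcl3-/- than in WT libraries. Smooth muscle markers, 5 genes, summed to 2814 to 3093, 2472 to 2600, 2384 to 2810 and 1798 to 2048 CPM, with 2 lower in Bcl3-/- libraries on day 1 and 3 on day 3, and 2 falling with time in WT and 4 in Bcl3-/- cells. Chondrocyte markers, 5 genes, summed to 771 to 2472, 785 to 1109, 355 to 1514 and 322 to 405 CPM. Of these, 1 was higher in Bcl3-/- libraries on day 1 and 1 was lower on day 3. With time 1 fell and 1 rose in WT, and 3 fell in Bcl3-/- cells. Endothelial markers, 5 genes of which 4 were tested, summed to 5.30 to 5.74, 7.77 to 11.1, 7.15 to 9.93 and 17.8 to 21.4 CPM. In each genotype comparison 1 of them was higher, and in each genotype 1 rose with time. Skeletal muscle markers summed to at most 22.0 CPM and red cell markers to at most 0.666 CPM in any library. Of all genes tested, 6.26% were lower and 9.03% higher in Bcl3-/- libraries on day 1, and 5.60 and 4.78% on day 3. With time 17.9% fell and 20.6% rose in WT, and 17.2 and 16.2% in Bcl3-/- libraries. The share of reads outside genes fell in the order of the groups, with means of 14.4, 13.8, 13.4 and 12.9%, as did the TMM factors, with means of 1.04, 1.02, 0.974 and 0.963. The part of these markers and measures in the levels below was not tested.

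The start sites of several members are shown as hand-picked examples, each of which holds both of the short sequences described next. The motifs searched were the core of the cell cycle genes homology region, TTTGAA or TTCGAA, and the CCAAT box, CCAAT, each on both strands, in RefSeq windows from 250 bases before to 50 after each start (GRCm38.p6). Windows were found for 34 of the 42 members, and 27 of them (79.4%) held the first motif, 25 (73.5%) the CCAAT box and 23 (67.6%) both. Among all 27025 genes with a window, 21.7% held the first, 41.1% the CCAAT box and 9.65% both. Capitals mark both motifs in either direction in the stretches below, which run 5′ to 3′ in the direction of transcription and lie at chr4:118437333-118437452 on the minus strand for Cdc20, chr10:69352919-69353038 on the minus strand for Cdk1, chr11:102925105-102925224 on the minus strand for Kif18b, chr15:99651637-99651756 on the minus strand for Racgap1, chr9:70421535-70421654 on the minus strand for Ccnb2 and chr15:102296166-102296285 on the plus strand for Espl1.
Cdc20: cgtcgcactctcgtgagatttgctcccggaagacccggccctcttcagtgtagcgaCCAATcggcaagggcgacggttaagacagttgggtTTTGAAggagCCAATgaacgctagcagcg
Cdk1: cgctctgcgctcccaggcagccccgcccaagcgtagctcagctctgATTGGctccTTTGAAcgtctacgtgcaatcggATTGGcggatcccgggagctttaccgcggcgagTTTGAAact
Kif18b: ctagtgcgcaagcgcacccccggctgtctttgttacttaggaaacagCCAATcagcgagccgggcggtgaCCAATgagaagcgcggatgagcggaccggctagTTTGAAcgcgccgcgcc
Racgap1: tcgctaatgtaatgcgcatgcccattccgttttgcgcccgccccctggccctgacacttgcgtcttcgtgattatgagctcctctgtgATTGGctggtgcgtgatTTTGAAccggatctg
Ccnb2: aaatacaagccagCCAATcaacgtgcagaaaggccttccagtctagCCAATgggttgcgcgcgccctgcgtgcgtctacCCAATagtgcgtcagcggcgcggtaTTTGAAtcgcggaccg
Espl1: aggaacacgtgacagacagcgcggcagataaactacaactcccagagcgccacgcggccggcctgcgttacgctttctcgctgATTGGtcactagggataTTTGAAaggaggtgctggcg

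In these 6 stretches the TTTGAA lay close to the RefSeq start, from base -27 (Espl1) to base 6 (Racgap1), with a further copy at -71 in Cdk1, and at least 1 CCAAT box lay upstream of it in each. Windows of Mad2l1, Birc5, Nuf2, Nusap1 and Pttg1 held neither motif; the RefSeq start of Pttg1 lies 270 bases inside the gene as GENCODE draws it, so its window does not reach the annotated 5′ end. The starts of Cenpa, Kif4, Cdca8 and Kif2c likewise lie 109, 328, 2394 and 3867 bases inside their genes, and that of Mad2l1 lies 169 bases upstream of its gene, so that its window ends before the annotated start. A match describes these letters only and not the binding of any factor. Of all genes tested, 5.60% were called lower in Bcl3-/- libraries on day 3. Of the 28 members with a window that were called so, 23 (82.1%) held the first motif, against 4 of the 6 members with a window that were not called. Both motifs were held by 67.9% of the members called and 66.7% of those not called.

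From day 1 to day 3, 41 of the 42 genes fell in WT (17.9% of all genes tested did) and 41 in Bcl3-/- libraries (17.2% did). At the later time 35 were lower in Bcl3-/- than in WT libraries (5.60% of all genes were). Securin (Pttg1) was called in none of these comparisons. Their summed level was 4406 to 4650 CPM in day 1 WT, 4035 to 4248 in day 1 Bcl3-/-, 2310 to 2588 in day 3 WT and 1722 to 1789 in day 3 Bcl3-/- libraries, and no group overlapped another. The group means took this descending order in 41 of 42 genes. The order was read from these same values, and the share of all genes that take it was not computed. Neighbours in the order differed unequally: 4 genes were called lower in Bcl3-/- libraries on day 1 (6.26% of all genes), 41 in day 3 WT than in day 1 Bcl3-/- libraries (7.35%), and 35 in Bcl3-/- libraries on day 3. In RNA from whole cultures, fewer dividing cells and less of these mRNAs per dividing cell cannot be told apart.

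**Figure D1:**
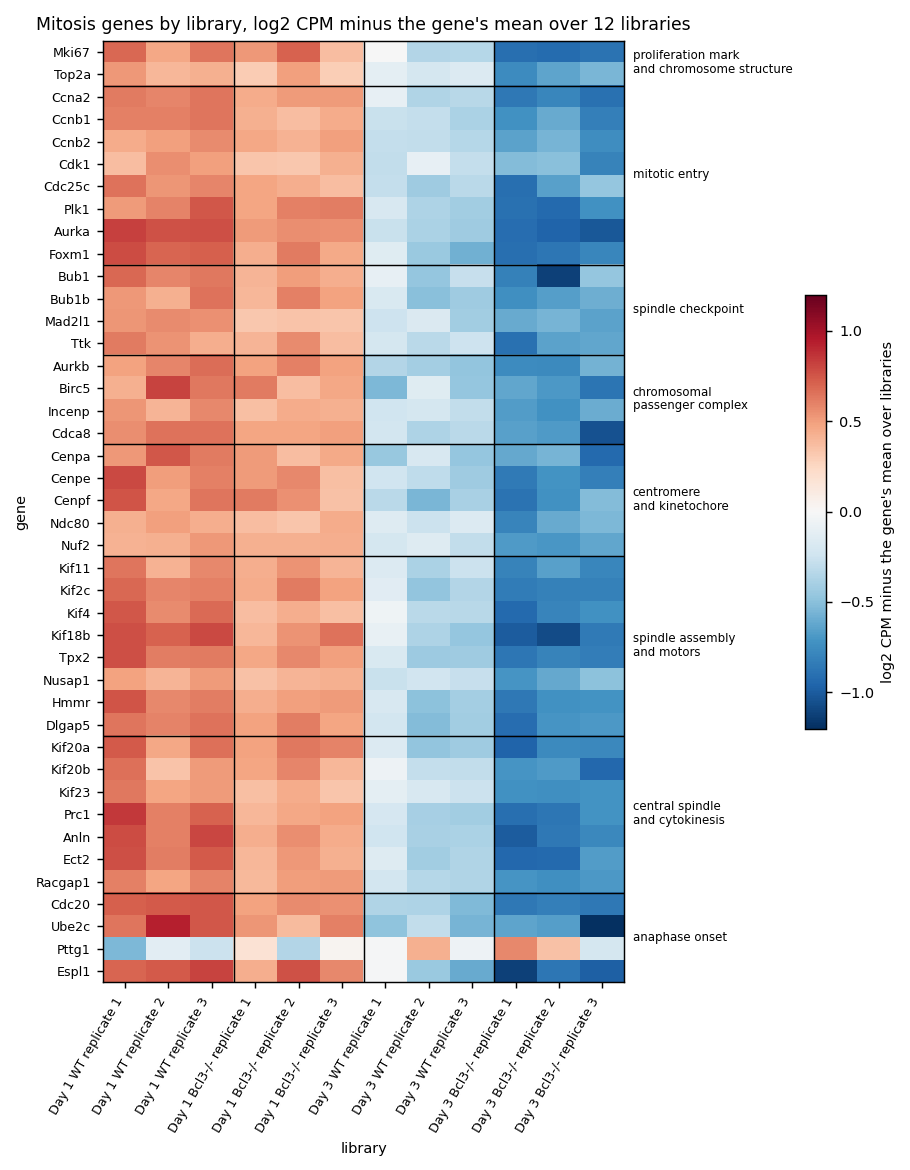
Each row is 1 of the 42 genes, grouped by role, and each column is 1 library; color is the log2 CPM minus the gene's mean over the 12 libraries. Except in the row of Pttg1, day 1 columns are above the gene's mean and the lowest values are in the day 3 Bcl3-/- columns, in all roles.

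On day 1, the question was whether the genotypes differ early in induction. Only 4 of 42 genes were called lower in Bcl3-/- libraries (6.26% of all genes tested were), and none was called higher (9.03% were). They were Aurka, log2 -0.25 ± 0.061 (adjusted p = 0.0178), Mad2l1, -0.22 ± 0.067 (adjusted p = 0.0462), Prc1, -0.28 ± 0.083 (adjusted p = 0.0424), and Cdc20, -0.20 ± 0.060 (adjusted p = 0.0404). The median over the 42 was -0.13, a level 8.86% lower, against 0.0024 over all genes. All estimates but that of Pttg1, 41 of 42, were below 0 (8105 of all 16318 genes tested were). In 19 genes every Bcl3-/- library lay below every WT library (18.9% of all genes tested did). The estimates ran from -0.28 in Kif4, a chromokinesin that just missed the threshold (adjusted p = 0.0531), to -0.018 in Kif20b among the genes below 0. These 4 calls depended on single libraries: when replicate 1 of either genotype was left out on day 1, 0 remained. Leaving out WT replicate 3 on day 1, Bcl3-/- replicate 2 or 3 on day 1, or Bcl3-/- replicate 2 on day 3 gave 1 call each. Leaving out Bcl3-/- replicate 3 on day 3 gave 8.

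On day 3, 35 of 42 genes were lower in Bcl3-/- libraries (5.60% of all genes tested) and none was higher (4.78%). The median difference was -0.47, a level 27.6% lower, against -0.0023 over all genes. In 39 genes the 3 Bcl3-/- libraries all lay below the 3 WT libraries (15.6% of all genes did); Bub1, Cenpf and Pttg1 overlapped. The largest differences were those of Mki67, log2 -0.68 ± 0.11 (adjusted p = 0.00333), Kif18b, -0.67 ± 0.11 (adjusted p = 0.00351), and Espl1, -0.65 ± 0.14 (adjusted p = 0.0131). The 7 genes not called were Cdc25c (-0.32 ± 0.10), Bub1b (-0.30 ± 0.095), Birc5 (-0.35 ± 0.12), Cenpa (-0.33 ± 0.11), Cenpf (-0.29 ± 0.11), Ube2c (-0.37 ± 0.14) and Pttg1 (0.15 ± 0.20), with adjusted p between 0.0652 and 0.689. All but Pttg1 of these 7 had an unadjusted p under 0.05 (4358 of all 16318 genes tested did). When only the 6 day 3 libraries were fitted, 23 genes were called, and the 12 calls lost had log2 estimates of -0.64 to -0.27. In that fit 328 of all genes were called lower, against 913 in the main fit.

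**Figure D2:**
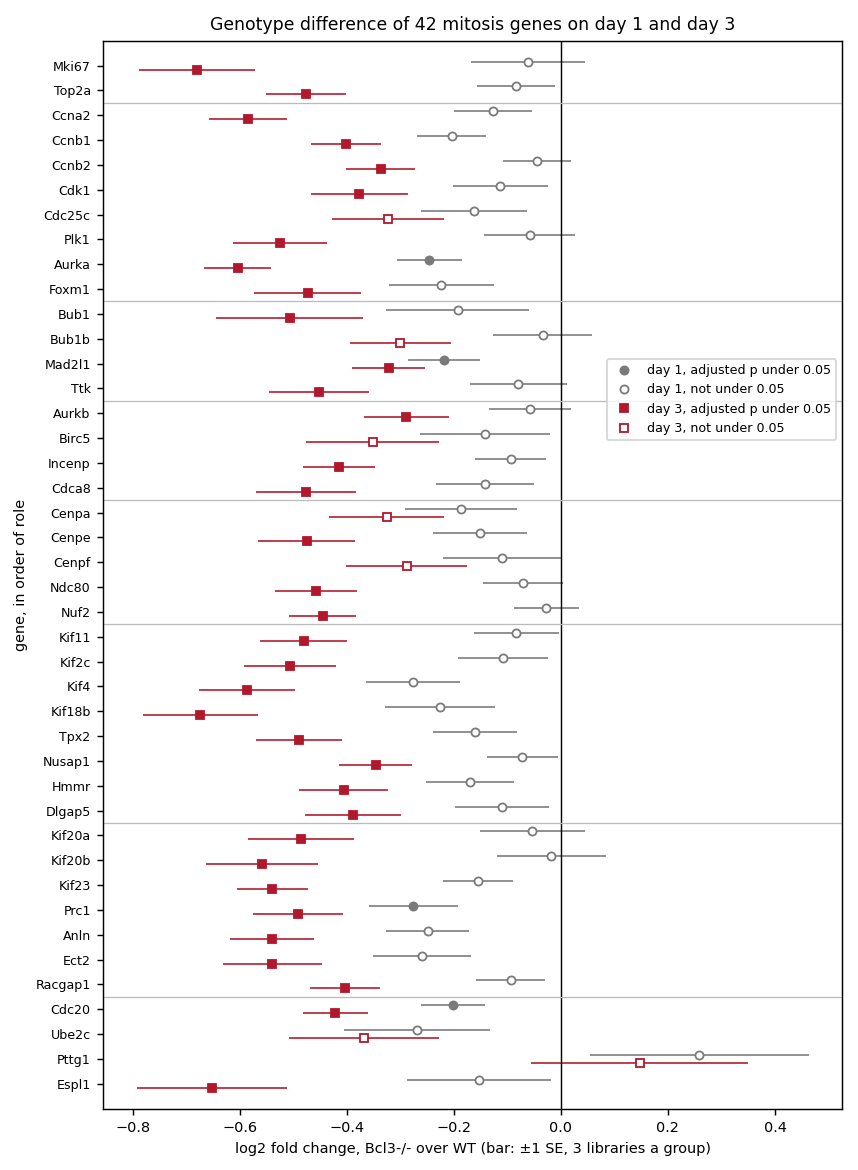
The log2 fold change of Bcl3-/- over WT (x axis) is given for each gene (y axis, in order of role) on day 1 (circles) and day 3 (squares), with bars of ±1 SE and filled symbols at an adjusted p under 0.05. The squares lie left of the circles in every gene, 35 are filled against 4 circles, and only Pttg1 lies right of 0.

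Mki67, whose product Ki-67 coats mitotic chromosomes and is the usual stain for cycling cells, stood at 193, 166 and 187 CPM in day 1 WT, 172, 196 and 155 in day 1 Bcl3-/-, 119, 93.6 and 94.8 in day 3 WT, and 64.1, 63.3 and 64.7 in day 3 Bcl3-/- libraries. The genotypes overlapped on day 1, where the Bcl3-/- libraries spanned the WT values, and were separate on day 3. It fell by 0.83 on the log2 scale in WT (adjusted p = 0.000108) and by 1.44 in Bcl3-/- libraries (adjusted p = 3.40e-06). Top2a, the topoisomerase that untangles sister chromatids, stood at 248.9, 228 and 233 CPM in day 1 WT, 214, 243 and 212 in day 1 Bcl3-/-, 159, 149.6 and 154 in day 3 WT, and 103, 112 and 119 in day 3 Bcl3-/- libraries. The genotypes overlapped on day 1 and did not on day 3, where the difference was log2 -0.48 ± 0.074 (adjusted p = 0.00312).

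Mitotic entry genes included the engine of M phase and its activators. Cdk1, the kinase that drives entry, stood at 119, 136 and 129 CPM in day 1 WT, 116, 115 and 124 in day 1 Bcl3-/-, 74.98, 85.8 and 75.6 in day 3 WT, and 64.0, 65.0 and 52.9 in day 3 Bcl3-/- libraries. Its genotypes overlapped on day 1 and separated on day 3 (log2 -0.38 ± 0.090, adjusted p = 0.0213), and its fall with time was among the smaller ones of the group, 38.4% in WT and 48.7% in Bcl3-/- libraries. Ccnb1, cyclin B1, its mitotic partner, stood at 177, 177 and 181 CPM in day 1 WT, 156, 151 and 158 in day 1 Bcl3-/-, 96.6, 95.6 and 89.2 in day 3 WT, and 70.4, 76.6 and 66.0 in day 3 Bcl3-/- libraries. The 4 groups did not overlap, and the day 3 difference was log2 -0.40 ± 0.065 (adjusted p = 0.00375). However, 51.9% of its transcript has near-identical copies in 4 other genes, among them Gm12856, so its counts are uncertain. Ccnb2, cyclin B2, was 20.8% lower on day 3 in Bcl3-/- libraries.

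Ccna2, cyclin A2, which acts in S phase and at mitotic entry, stood at 213, 207 and 215 CPM in day 1 WT, 188, 197 and 196 in day 1 Bcl3-/-, 129, 107 and 109 in day 3 WT, and 76.2, 79.9 and 74.1 in day 3 Bcl3-/- libraries. Every Bcl3-/- library was below every WT library on each day, but the day 1 difference was not called (log2 -0.13 ± 0.072, adjusted p = 0.28) and the day 3 difference was (log2 -0.58 ± 0.073, adjusted p = 0.00137). Plk1, the polo-like kinase of centrosomes, kinetochores and the central spindle, stood at 112, 119 and 131 CPM in day 1 WT, 109, 119 and 119.8 in day 1 Bcl3-/-, 68.5, 60.6 and 58.8 in day 3 WT, and 42.1, 41.1 and 47.5 in day 3 Bcl3-/- libraries. It overlapped on day 1 and differed on day 3 by log2 -0.52 ± 0.087 (adjusted p = 0.00415).

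Aurka, the Aurora kinase of centrosomes and spindle poles, stepped down from group to group. It stood at 107, 103 and 104 CPM in day 1 WT, 86.4, 89.3 and 88.8 in day 1 Bcl3-/-, 50.2, 46.5 and 45.0 in day 3 WT, and 32.2, 31.1 and 29.9 in day 3 Bcl3-/- libraries. No groups overlapped, and its day 3 Bcl3-/- mean was 3.37 times below that of day 1 WT libraries. The genotype differences were log2 -0.25 ± 0.061 (adjusted p = 0.0178) on day 1 and -0.60 ± 0.062 (adjusted p = 0.000547) on day 3. Foxm1, the forkhead factor that activates G2 and M phase genes, stood at 106, 100.2 and 101 CPM in day 1 WT, 83.2, 95.1 and 84.5 in day 1 Bcl3-/-, 55.8, 45.2 and 41.4 in day 3 WT, and 33.0, 33.9 and 35.8 in day 3 Bcl3-/- libraries. The groups were again separate, and it was called on day 3 (log2 -0.47 ± 0.10, adjusted p = 0.0123) but not on day 1 (-0.22 ± 0.10, adjusted p = 0.155). Cdc25c, the phosphatase that activates Cdk1, stood at 26.0, 24.0 and 24.9 CPM in day 1 WT, 23.0, 22.4 and 21.5 in day 1 Bcl3-/-, 13.5, 12.3 and 13.2 in day 3 WT, and 8.85, 10.5 and 12.0 in day 3 Bcl3-/- libraries. The groups did not overlap, although neither genotype difference was called, and it fell by 47.7% in WT and 53.2% in Bcl3-/- libraries.

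Spindle checkpoint genes fell with time in all 4 cases (17.9% of all genes tested did in WT and 17.2% in Bcl3-/- libraries). On day 3, 3 of the 4 were lower in Bcl3-/- libraries (5.60% of all genes were). Bub1b encodes BubR1, part of the inhibitor of Cdc20. It stood at 107, 101 and 118 CPM in day 1 WT, 99.1, 114 and 105 in day 1 Bcl3-/-, 66.2, 52.9 and 55.9 in day 3 WT, and 45.0, 47.4 and 49.8 in day 3 Bcl3-/- libraries. Although the day 3 libraries of the genotypes did not overlap, the difference was not called (log2 -0.30 ± 0.095, adjusted p = 0.0652). Mad2l1, the Mad2 protein that binds Cdc20, stood at 76.4, 78.2 and 77.2 CPM in day 1 WT, 66.0, 66.8 and 66.5 in day 1 Bcl3-/-, 44.3, 46.7 and 39.6 in day 3 WT, and 34.7, 35.9 and 33.9 in day 3 Bcl3-/- libraries. Every group was apart, with differences of log2 -0.22 ± 0.067 (adjusted p = 0.0462) on day 1 and -0.32 ± 0.068 (adjusted p = 0.0123) on day 3. Ttk, the Mps1 kinase that starts checkpoint signalling, stood at 35.2, 33.2 and 30.9 CPM in day 1 WT, 30.4, 34.0 and 29.5 in day 1 Bcl3-/-, 19.7, 18.2 and 19.2 in day 3 WT, and 12.3, 14.7 and 14.9 in day 3 Bcl3-/- libraries. Its genotypes overlapped on day 1 and differed by log2 -0.45 ± 0.094 (adjusted p = 0.0112) on day 3; Bub1, a kinase of the same pathway, was called on day 3 (log2 -0.51 ± 0.14, adjusted p = 0.036) with 1 Bcl3-/- library at 30.7 CPM, just above the lowest WT value of 30.6.

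The chromosomal passenger complex corrects wrong attachments and moves to the central spindle at anaphase. Aurkb, its kinase, stood at 55.9, 60.1 and 63.6 CPM in day 1 WT, 55.9, 60.7 and 55.9 in day 1 Bcl3-/-, 31.4, 30.1 and 28.8 in day 3 WT, and 23.6, 23.4 and 26.9 in day 3 Bcl3-/- libraries. The day 1 values overlapped, and the day 3 difference, log2 -0.29 ± 0.079 (adjusted p = 0.0374), was the smallest of the 35 called. Birc5, the survivin subunit, stood at 82.0, 107 and 94.1 CPM in day 1 WT, 93.6, 78.6 and 84.2 in day 1 Bcl3-/-, 41.9, 55.1 and 44.2 in day 3 WT, and 39.4, 37.9 and 33.2 in day 3 Bcl3-/- libraries. The spread inside each group was wide, and the day 3 difference was not called (log2 -0.35 ± 0.12, adjusted p = 0.0916). The scaffold Incenp and the borealin subunit Cdca8 were lower on day 3, with differences of log2 -0.41 ± 0.067 (adjusted p = 0.00375) and -0.48 ± 0.094 (adjusted p = 0.00863). All 4 subunits fell with time in both genotypes, by 40.8 to 50.1% in WT and 52.6 to 58.2% in Bcl3-/- libraries. Of all genes tested, 17.9% fell in WT and 17.2% in Bcl3-/- libraries, and 5.60% were lower in Bcl3-/- libraries on day 3.

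At the centromere and kinetochore, Cenpa, the histone H3 variant that marks centromeres, stood at 88.0, 103 and 94.6 CPM in day 1 WT, 87.4, 79.2 and 84.0 in day 1 Bcl3-/-, 44.9, 53.7 and 44.5 in day 3 WT, and 40.2, 41.6 and 32.1 in day 3 Bcl3-/- libraries. The genotypes did not overlap on either day, yet neither difference was called (log2 -0.19 ± 0.11, adjusted p = 0.273 and -0.33 ± 0.11, adjusted p = 0.0751). Cenpe, a kinetochore motor that brings chromosomes to the spindle equator, stood at 98.9, 80.9 and 87.0 CPM in day 1 WT, 81.6, 85.1 and 73.4 in day 1 Bcl3-/-, 48.3, 46.3 and 42.6 in day 3 WT, and 31.6, 34.7 and 32.2 in day 3 Bcl3-/- libraries. The genotypes overlapped on day 1 and were apart on day 3 (log2 -0.48 ± 0.090, adjusted p = 0.00758). Ndc80 and Nuf2 form the arm that grips microtubules, and their genotypes overlapped on day 1 and were apart on day 3. Ndc80 stood at 40.7, 42.5 and 41.0 CPM in day 1 WT, 39.1, 38.1 and 41.0 in day 1 Bcl3-/-, 27.2, 25.3 and 27.0 in day 3 WT, and 17.4, 19.8 and 20.8 in day 3 Bcl3-/- libraries. Its day 3 difference was log2 -0.46 ± 0.077 (adjusted p = 0.00435). Nuf2 stood at 69.2, 69.5 and 74.3 CPM in day 1 WT, 69.4, 69.5 and 70.1 in day 1 Bcl3-/-, 44.6, 46.3 and 42.2 in day 3 WT, and 32.2, 32.0 and 33.7 in day 3 Bcl3-/- libraries. The day 1 libraries of both genotypes lay within 69.2 and 74.3 CPM, and on day 3 the difference was log2 -0.45 ± 0.062 (adjusted p = 0.00215). Cenpf, a large kinetochore protein of G2 and M phase, stood at 89.5, 73.2 and 82.7 CPM in day 1 WT, 81.9, 77.8 and 67.6 in day 1 Bcl3-/-, 42.6, 36.3 and 40.7 in day 3 WT, and 28.7, 32.2 and 37.1 in day 3 Bcl3-/- libraries. Its genotypes overlapped on both days, and the day 3 difference was not called (-0.29 ± 0.11, adjusted p = 0.125).

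All 8 genes of spindle assembly and its motors were lower in Bcl3-/- libraries on day 3 (5.60% of all genes tested were). All 8 fell with time in each genotype (17.9% of all genes did in WT and 17.2% in Bcl3-/- libraries). Kif11, the motor that pushes spindle poles apart, stood at 124, 106 and 118 CPM in day 1 WT, 107, 115 and 105 in day 1 Bcl3-/-, 70.8, 61.1 and 66.4 in day 3 WT, and 45.5, 50.3 and 46.2 in day 3 Bcl3-/- libraries. It overlapped on day 1, and the day 3 difference was log2 -0.48 ± 0.081 (adjusted p = 0.00426). Tpx2, which nucleates microtubules near chromosomes and activates Aurora A, stood at 199.8, 178 and 179 CPM in day 1 WT, 161, 174 and 164 in day 1 Bcl3-/-, 103, 86.3 and 86.6 in day 3 WT, and 63.9, 66.9 and 65.6 in day 3 Bcl3-/- libraries. Its 4 groups were separate, with differences of log2 -0.16 ± 0.078 (adjusted p = 0.201) on day 1 and -0.49 ± 0.080 (adjusted p = 0.00373) on day 3. Kif18b and Kif2c, which shorten microtubules, were lower on day 3 by 37.3 and 29.6%, and the chromokinesin Kif4 by 33.4%. Kif4 stood at 76.9, 68.2 and 73.3 CPM in day 1 WT, 59.2, 62.1 and 58.9 in day 1 Bcl3-/-, 44.4, 36.6 and 36.5 in day 3 WT, and 24.0, 26.5 and 27.8 in day 3 Bcl3-/- libraries, in 4 groups that did not overlap. The microtubule-binding proteins Hmmr, Dlgap5 and Nusap1 were lower by 24.5, 23.6 and 21.3%.

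The 7 genes of the central spindle and cytokinesis were likewise all called lower on day 3 (5.60% of all genes tested were). Their log2 differences lay between -0.56 (Kif20b) and -0.40 (Racgap1). Kif20b, a kinesin that acts late in cytokinesis, stood at 55.8, 44.7 and 50.4 CPM in day 1 WT, 49.1, 53.1 and 46.7 in day 1 Bcl3-/-, 33.8, 29.0 and 28.9 in day 3 WT, and 21.7, 22.0 and 18.4 in day 3 Bcl3-/- libraries, with overlap on day 1 and none on day 3. Kif23, the motor of centralspindlin, stood at 95.6, 85.7 and 88.3 CPM in day 1 WT, 79.7, 84.3 and 78.0 in day 1 Bcl3-/-, 57.0, 54.1 and 51.6 in day 3 WT, and 37.3, 37.0 and 37.7 in day 3 Bcl3-/- libraries. Its 4 groups were separate, with a day 3 difference of log2 -0.54 ± 0.067 (adjusted p = 0.00135). Anln, anillin, the scaffold of the contractile ring, stood at 264, 235 and 268 CPM in day 1 WT, 208, 227 and 209.7 in day 1 Bcl3-/-, 131, 118 and 118 in day 3 WT, and 77.2, 84.8 and 89.8 in day 3 Bcl3-/- libraries. Its groups were separate too, and its day 1 difference just missed the threshold (log2 -0.25 ± 0.078, adjusted p = 0.0501) while the day 3 difference was called (-0.54 ± 0.079, adjusted p = 0.00249). Ect2, the exchange factor that activates RhoA at the equator, stood at 122, 109 and 119 CPM in day 1 WT, 94.3, 102 and 96.2 in day 1 Bcl3-/-, 64.4, 53.7 and 55.8 in day 3 WT, and 37.2, 37.5 and 45.1 in day 3 Bcl3-/- libraries. Its groups were separate, with differences of log2 -0.26 ± 0.091 (adjusted p = 0.076) and -0.54 ± 0.093 (adjusted p = 0.00475) on the respective days. Prc1, which bundles the midzone microtubules, was 17.4% lower on day 1 and 28.8% lower on day 3, and the motor Kif20a 28.6% lower on day 3. Some counts are uncertain because the strand setting of the counting was not given. Exons on the opposite strand overlap Kif20a (Cdc23), Prc1 (Rccd1), Ccna2 (Exosc9), Kif4 (Pdzd11), Ube2c (Tnnc2), Nusap1 (Oip5), Cdc20 (Elovl1), Plk1 (Gm44985), Cdc25c (Gm3550) and Cdca8 (9930104L06Rik). On the same strand, Foxm1 (Gm44596 and Tex52) and Top2a (Gm23451) overlap other genes. Near-identical copies cover 22.9% of the transcript of Ndc80 and 16.0% of that of Racgap1. In Prc1 they cover 30.2% and lie in 56 other genes, Rccd1 among them.

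The 4 genes of anaphase onset split. Cdc20, which turns on the anaphase-promoting complex, stood at 172, 174 and 175 CPM in day 1 WT, 146, 155 and 153 in day 1 Bcl3-/-, 81.2, 80.9 and 72.5 in day 3 WT, and 57.8, 59.4 and 57.9 in day 3 Bcl3-/- libraries. Its 4 groups were tight and separate, with differences of log2 -0.20 ± 0.060 (adjusted p = 0.0404) on day 1 and -0.42 ± 0.061 (adjusted p = 0.00242) on day 3. Espl1, separase, which cuts the cohesin that holds sister chromatids, stood at 49.8, 51.0 and 53.7 CPM in day 1 WT, 41.4, 52.0 and 45.8 in day 1 Bcl3-/-, 30.4, 22.6 and 20.1 in day 3 WT, and 14.1, 16.7 and 15.6 in day 3 Bcl3-/- libraries. It overlapped on day 1, differed on day 3, and had the largest fall with time of any member in Bcl3-/- libraries, log2 -1.58 ± 0.14 (adjusted p = 1.14e-05). Ube2c, the ubiquitin-conjugating enzyme of the complex, stood at 88.7, 108 and 95.4 CPM in day 1 WT, 82.0, 74.1 and 86.8 in day 1 Bcl3-/-, 40.9, 46.5 and 38.7 in day 3 WT, and 36.8, 35.9 and 24.6 in day 3 Bcl3-/- libraries. It had the largest fall in WT libraries, -1.22 ± 0.14 (adjusted p = 4.82e-05), and was not called between genotypes, although its groups did not overlap.

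Pttg1, securin, the inhibitor of separase, did not follow the others. It stood at 11.9, 15.9 and 14.5 CPM in day 1 WT, 19.5, 13.6 and 17.6 in day 1 Bcl3-/-, 17.2, 23.2 and 16.5 in day 3 WT, and 25.7, 22.0 and 14.9 in day 3 Bcl3-/- libraries. The highest libraries were on day 3, all 3 day 3 WT libraries exceeded the day 1 WT ones, and every other pair of groups compared overlapped. No difference was called: log2 0.26 ± 0.20 (adjusted p = 0.455) on day 1 and 0.15 ± 0.20 (adjusted p = 0.689) on day 3 for genotype, 0.42 ± 0.20 (adjusted p = 0.124) with time in WT and 0.31 ± 0.20 (adjusted p = 0.263) in Bcl3-/- libraries. It rested on few reads, 263, 697 and 544 in the day 1 WT libraries, and its SE was the largest of the 42 genes in each of these comparisons. By FPKM, the authors' value per length of transcript, securin stood at 28.3 ± 3.52 (SD, n = 3) in day 1 WT libraries. This lay between 7.95 ± 0.227 for separase, the lowest member, and 143 ± 5.03 for Cdk1, the highest.

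**Figure D3:**
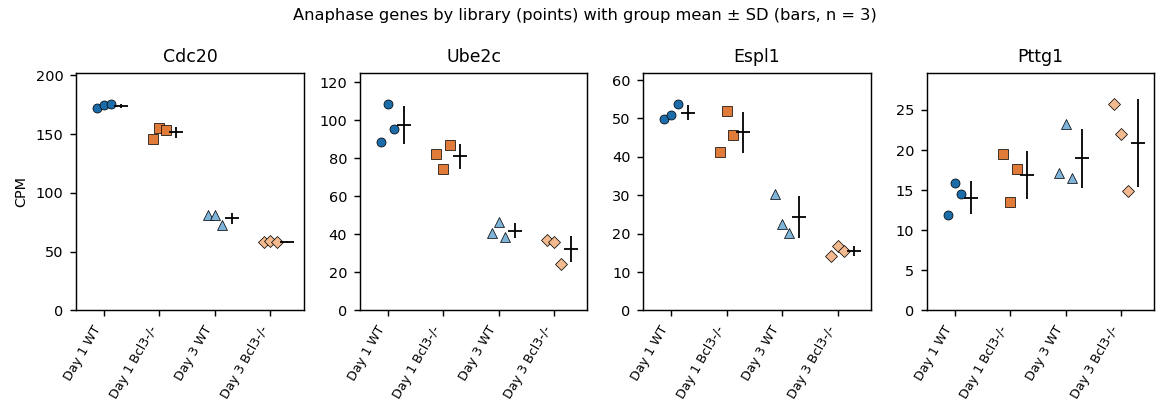
CPM (y axis, from 0) of 4 anaphase genes in each library (points), by group (x axis), with the group mean ± SD (bars, n = 3). Cdc20, Ube2c and Espl1 step down to the day 3 Bcl3-/- libraries, while Pttg1 ranges from 11.9 to 25.7 CPM with its highest values on day 3.

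Levels per length also ranked the members. In day 1 WT libraries the highest mean FPKM values were those of Cdk1 (143 ± 5.03, SD, n = 3), Ube2c (128 ± 10.9), Cdc20 (121 ± 2.43) and Birc5 (120.2 ± 13.7), of which the last 3 did not differ beyond their spread. The lowest were those of Espl1 and Kif20b (9.28 ± 0.99). In day 3 Bcl3-/- libraries Cdk1 was still the highest, at 60.8 ± 8.51 FPKM, and Espl1 the lowest, at 2.21 ± 0.189.

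The change with time asked how far the mitosis genes move as induction proceeds. In WT libraries 41 of 42 genes fell between day 1 and day 3 (17.9% of all genes tested did) and none rose (20.6% did), with a median of log2 -0.93, a level 47.6% lower. In Bcl3-/- libraries 41 fell (17.2%) and none rose (16.2%), with a median of -1.22, a level 57.2% lower. The medians over all genes were 0.0014 and 0.0012. In the 41 genes every day 3 library lay below every day 1 library of its genotype, as in 23.7% of all genes in WT and 23.9% in Bcl3-/- libraries. Adding the culture as a block left 41 calls in each genotype. The WT and Bcl3-/- changes rest on different libraries, while each genotype comparison shares its libraries with them.

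Within single cultures, the median change of the 42 genes was log2 -0.82, -0.94 and -1.01 in the WT cultures and -1.27, -1.25 and -1.21 in the Bcl3-/- cultures. No WT culture fell as far as any Bcl3-/- culture. These cultures are libraries paired by shared code, which the Bcl3-/- values do not bear out. Deviations of paired libraries from their group means correlated over all genes at -0.157 to -0.017 in Bcl3-/- and 0.243 to 0.327 in WT libraries. In 31 of 42 genes each of the 3 Bcl3-/- cultures fell further than each of the 3 WT cultures, which was so in 12.5% of all genes tested. Nuf2 was such a gene, with changes of -0.63, -0.58 and -0.82 in WT and -1.11, -1.12 and -1.06 in Bcl3-/- cultures, as was Mki67, with -0.69, -0.82 and -0.98 against -1.42, -1.63 and -1.26. Mad2l1 was not, with -0.79, -0.74 and -0.96 against -0.93, -0.90 and -0.97.

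**Figure D4:**
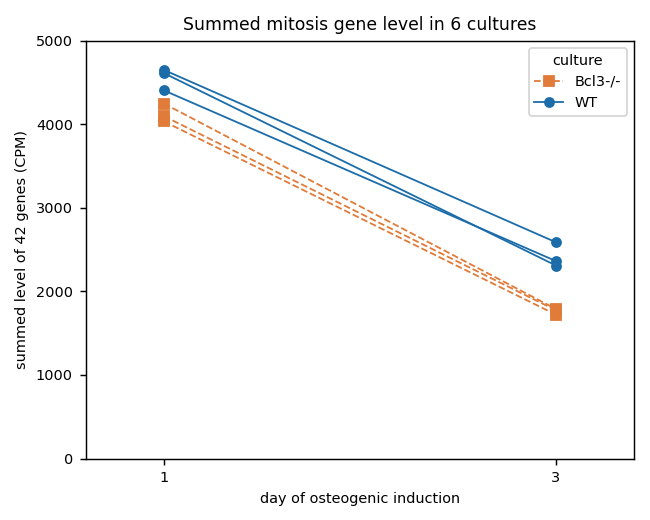
Summed CPM of the 42 genes (y axis, from 0) on day 1 and day 3 (x axis) in 3 WT (circles, solid lines) and 3 Bcl3-/- cultures (squares, dashed lines), with a line joining the libraries of 1 culture. On day 1 the WT cultures lie at 4406 to 4650 CPM and the Bcl3-/- cultures at 4035 to 4248, and on day 3 they lie further apart, at 2310 to 2588 and 1722 to 1789.

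**Figure D5:**
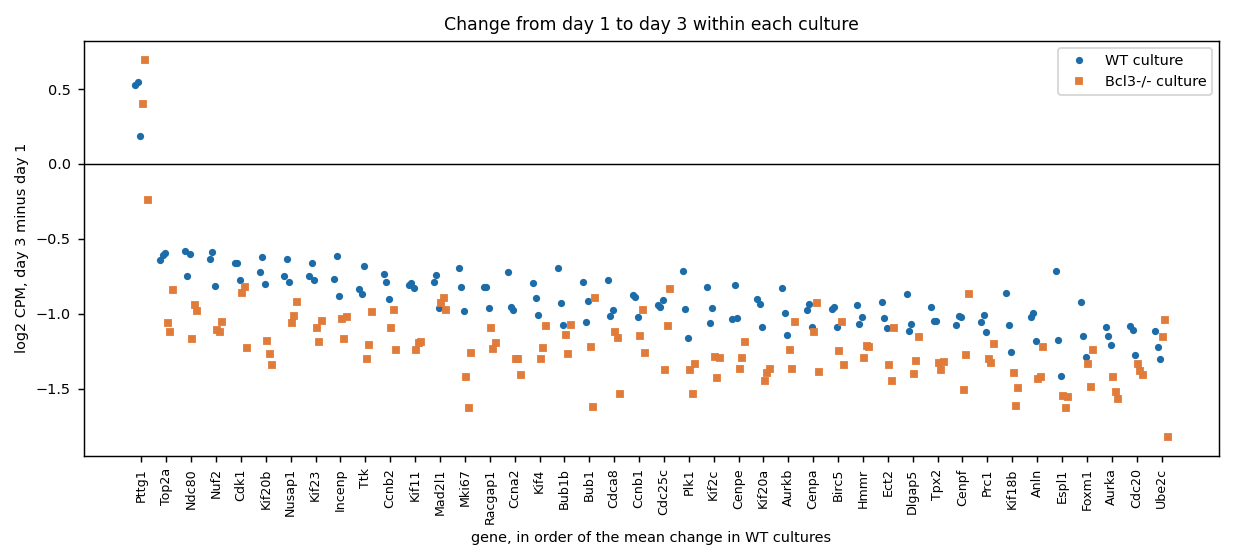
The change in log2 CPM from day 1 to day 3 (y axis) of each gene (x axis, in order of its mean change in WT) is plotted for the 3 WT (circles) and 3 Bcl3-/- cultures (squares). Squares lie below circles in 31 of 42 genes, and Pttg1 lies above 0 in 5 of 6 cultures.

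The interaction tested whether the fall differed between genotypes, gene by gene. All 42 estimates were below 0 (8562 of all 16318 genes tested were), with a median of -0.31 against -0.014 over all genes. An unadjusted p under 0.05 was found for 26 of the 42 (and for 1961 of all genes tested). Only 1 gene passed the adjustment (0.950% of all genes tested were called lower, and 0.172% higher, where no member was). It was Nuf2, at log2 -0.42 ± 0.087 (adjusted p = 0.0444), whose fall in Bcl3-/- libraries exceeded that in WT. The largest estimate was that of Mki67, -0.62 ± 0.15 (adjusted p = 0.0814), followed by Kif20b, -0.54 ± 0.15 (adjusted p = 0.119), and the smallest that of Ube2c, -0.10 ± 0.20 (adjusted p = 0.905). With the culture as a block, 3 genes passed and Nuf2 did not (adjusted p = 0.0816). They were Mki67 (-0.61, adjusted p = 0.0476), Kif20a (-0.43, adjusted p = 0.0488) and Kif20b (-0.55, adjusted p = 0.0405). Leaving out each library in turn gave 0 to 2 calls, and DESeq2 gave 7. Of all genes, 155 were called lower in the main fit, 239 with the culture as a block and 372 with DESeq2.

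Day 3 WT and day 1 Bcl3-/- libraries are neighbours in the order of levels, and between them 41 of 42 genes were lower in day 3 WT libraries (7.35% of all genes tested) and none was higher (7.32%). The median was log2 -0.78, a level 41.7% lower, and the 41 genes did not overlap between these groups (17.5% of all genes). Cdc20 differed most, at -0.95 ± 0.061 (adjusted p = 1.56e-05). For comparison, the median of the same 42 genes between day 1 Bcl3-/- and day 1 WT libraries was -0.13; these comparisons share the day 1 Bcl3-/- libraries.

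Other genes of the mitotic machinery also fell and were also lower in Bcl3-/- libraries. In 3 further lists with 75 genes, namely other mitotic kinases and regulators, other kinetochore genes and other spindle and cytokinesis genes, 10 were lower in Bcl3-/- libraries on day 1 (6.26% of all genes tested were), 47 on day 3 (5.60%), and 70 fell with time in WT (17.9%) and 72 in Bcl3-/- libraries (17.2%); none was called higher in any of these. Of the kinases and regulators, Mastl, which restrains the phosphatase that opposes Cdk1, differed on day 3 by log2 -0.64 ± 0.077 (adjusted p = 0.00124). Mybl2, the B-Myb factor that acts with Foxm1, differed on day 1 by -0.42 ± 0.094 (adjusted p = 0.011). Of the kinetochore genes, Spdl1, which brings dynein to the kinetochore, differed on day 3 by -0.54 ± 0.085 (adjusted p = 0.0031), and of the spindle genes Ckap2l by -0.50 ± 0.070 (adjusted p = 0.00215).

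Of 15 genes listed for the anaphase-promoting complex, its activator Fzr1 among them, edgeR called 0 between genotypes on day 3. Of all genes tested, 5.60% were called lower and 4.78% higher there. An unadjusted p under 0.05 was found for 1 of the 15 on day 3 (and for 4358 of all 16318 genes tested). On day 1, 1 was lower in Bcl3-/- libraries (6.26% of all genes tested were). With time in Bcl3-/- libraries 3 fell and 1 rose (17.2 and 16.2% of all genes did). With time in WT 3 fell and 3 rose, shares close to the 17.9 and 20.6% of all genes tested. The falls in WT included Fzr1, the Cdh1 activator of late mitosis and G1, log2 -0.37 ± 0.063 (adjusted p = 0.000601). The rises in WT included Anapc5, 0.28 ± 0.059 (adjusted p = 0.00274). The complex also works outside mitosis, in G1. Of 17 condensin and cohesin genes, 7 were lower in Bcl3-/- libraries on day 3 (5.60% of all genes were), among them the condensin subunits Ncapg2 (-0.65 ± 0.12, adjusted p = 0.00616), Smc2 (-0.48 ± 0.089, adjusted p = 0.00697) and Ncaph (-0.42 ± 0.087, adjusted p = 0.0107).

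DNA replication genes were called in the same direction as the mitosis genes. Of 35, 9 were lower in Bcl3-/- libraries on day 1 (6.26% of all genes tested) and 19 on day 3 (5.60%). With time 28 fell in WT (17.9%) and 31 in Bcl3-/- libraries (17.2%), and none was called the other way. On day 1, Rrm2, a subunit of ribonucleotide reductase, differed by log2 -0.62 ± 0.092 (adjusted p = 0.00161), and on day 3 Cdc6, which loads the replicative helicase, by -0.89 ± 0.095 (adjusted p = 0.000679). Among 14 genes of the MuvB, DREAM and E2F repressor group, which includes factors that silence cell cycle genes in resting cells, 4 were lower in Bcl3-/- libraries on each day, against the same 6.26 and 5.60% of all genes; E2f7, itself made in S phase, differed by -0.64 ± 0.13 (adjusted p = 0.00834) on day 3.

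The D cyclins and CDK inhibitors held changes in both directions. Cdkn1c, the inhibitor p57, stood at 6.92, 9.02 and 15.8 CPM in day 1 WT, 82.3, 67.1 and 69.9 in day 1 Bcl3-/-, 94.4, 217 and 217 in day 3 WT, and 446, 399 and 386 in day 3 Bcl3-/- libraries. No groups overlapped. It was higher in Bcl3-/- libraries by log2 2.77 ± 0.33 (adjusted p = 0.000591) on day 1 and 1.22 ± 0.30 (adjusted p = 0.0232) on day 3, and it rose with time by 4.04 ± 0.34 (adjusted p = 9.28e-06) in WT. Cdkn1a, the inhibitor p21, went the other way, at 409.7, 417 and 419 CPM in day 1 WT, 332, 255 and 313 in day 1 Bcl3-/-, 297, 284 and 219 in day 3 WT, and 197, 197 and 179 in day 3 Bcl3-/- libraries. Its differences were -0.47 ± 0.11 (adjusted p = 0.017) on day 1 and -0.48 ± 0.12 (adjusted p = 0.021) on day 3. Of the 13 genes of this list, 4 were lower (5.60% of all genes were) and 1, Cdkn1c, was higher (4.78% were) on day 3.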

How the data were processed

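RNA was measured in 12 libraries (polyA RNA, SMART-seq v4 cDNA). The authors trimmed reads with Trim Galore, aligned them with TopHat2 to the mouse genome (GRCm38, mm10), and deposited HTSeq read counts per gene and Cufflinks FPKM values. The strand setting of the counting is not given in the sources used here.

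From the deposited counts, 5 rows that name no gene, 12.3 to 14.7% of reads, were set aside. edgeR 4.0.16 in R 4.3.3 fitted all 4 groups (filterByExpr, TMM factors of 0.951 to 1.05, quasi-likelihood tests, no block), with Benjamini-Hochberg adjustment over 16318 genes; FPKM served for levels per length and for limma 3.58.1 on log2(FPKM + 1). DESeq2 1.42.0, other scalings, filters, blocks and leaving out each library were alternatives. No 2 libraries were copies: over 66 pairs the lowest chi-square per gene was 9.136. Code was tested on simulated data. The members and lists were chosen with earlier results of these data known. Values in every library were given for index members of each role, the extremes and the members not called; of other lists, up to 3 genes with the smallest adjusted p.

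The same 6 codes stand in the labels of both days, so libraries that share a code were taken as the same culture and paired over time. The labels do not state this. Over all genes, deviations of paired libraries correlated at 0.243 to 0.327 in WT and -0.157 to -0.017 in Bcl3-/- libraries. The Bcl3-/- values do not bear the pairing out. Numbers shared across genotypes are numbers only.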

Additional observations from a re-analysis of the deposited data

Results flagged for a closer look

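The interaction of genotype and time in Nuf2, a subunit of the microtubule-binding arm of the kinetochore, was set apart because the effect of time differed between genotypes by a test of that difference. The estimate was log2 -0.42 (adjusted p = 0.0444, edgeR quasi-likelihood test), with changes of -0.63, -0.58 and -0.82 in the 3 WT cultures and -1.11, -1.12 and -1.06 in the 3 Bcl3-/- cultures. The call held in 4 of 23 alternatives, over which the adjusted p ran from 0.00321 to 0.188.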

How the results depend on the processing

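The 41 members called with time in WT, with time in Bcl3-/-, and between day 3 WT and day 1 Bcl3-/- libraries numbered 41 in every alternative run. On day 3 the 35 calls became 23 with only the libraries compared, and 25 with limma on log2(FPKM + 1) or log2(FPKM + 0.1). They were 26 at an adjusted p under 0.01 and 32 to 36 with 1 library left out. On day 1 the 4 calls became 7 with DESeq2, 0 with no count filter, 8 with only the libraries compared, 2 with limma on log2(FPKM + 1) or log2(FPKM + 0.1), 7 with the culture as a random effect, 0 at an adjusted p under 0.01 and 0 to 8 with 1 library left out. With the replicate number of the titles as a block, 1 of the 4 was called; across genotypes these numbers pair no cultures. For the interaction, 1 call became 7 with DESeq2, 0 with RLE size factors, 4 with no count filter, 0 in each of 3 limma fits, 3 with the culture as a replicate block, 0 with the title number as a block, 0 at an adjusted p under 0.01 and 0 to 2 with 1 library left out. Counts over all genes moved too. On day 1, 1021 of all genes were called lower in the main fit, 1286 with DESeq2, 855 with no count filter and 1179 with only the libraries compared. On day 3 these were 913 in the main fit and 328 with only the libraries compared. They were 442 with limma on log2(FPKM + 1), 430 with limma on log2(FPKM + 0.1) and 304 at an adjusted p under 0.01. For the interaction they were 155 in the main fit, 372 with DESeq2, 472 with no count filter and 239 with the culture block. The causes of these differences were not tested. The culture block changed no other count of calls by more than 1.5 times.

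Of 5922 values of single members under an alternative, 5734 kept direction and call, 129 lost and 43 gained a call, and 16 changed sign, none of them called. Over all alternative runs, genotype on day 1 ranged from -0.10 to 0.05 in Kif20b, -0.12 to 0.01 in Plk1 and -0.09 to 0.03 in Bub1b. It ranged from -0.06 to 0.01 in Nuf2 and -0.15 to 0.01 in Mki67. These members changed sign only with 1 library left out. Over the same runs, genotype on day 3 ranged from -0.03 to 0.33 in Pttg1, and the interaction from -0.29 to 0.07 in Pttg1 and -0.20 to 0.06 in Ube2c. Day 3 WT against day 1 Bcl3-/- ranged from -0.01 to 0.27 in Pttg1. The interaction in Cenpf was 0 with limma on log2(FPKM + 1), with and without a filter. With 3 libraries a group, the SE of Pttg1, 0.20, leaves changes of its size undetectable here.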

Other observations

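Across the 42 genes, the deviation of a library from its group's mean was related to transcript length in some libraries. Spearman's rho was 0.57, -0.59 and -0.10 in the day 1 WT libraries, -0.18, 0.59 and -0.53 in the day 1 Bcl3-/- libraries, 0.45, -0.39 and -0.08 in the day 3 WT libraries and -0.35, -0.08 and 0.19 in the day 3 Bcl3-/- libraries. These are descriptions across genes of 1 library each, which share that library's preparation, and the part of transcript length in the differences between groups was not tested.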
